A study of Saccharomyces cerevisiae with 12 samples.

Results

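The regulators of glycolytic genes in budding yeast described here are 6 transcription factor genes, GCR1 (YPL075W), GCR2 (YNL199C), TYE7 (YOR344C), RAP1 (YNL216W), REB1 (YBR049C) and ABF1 (YKL112W). They were taken by gene symbol from the array's probe annotation, and all 6 were found among 5636 genes measured. Dual-colour arrays compared a Saccharomyces cerevisiae strain labelled as a gcr1 null mutant with a second strain, during growth on 3% raffinose (4 arrays), 3% galactose (4 arrays) or 2% glucose (4 arrays). The labels give no strain background, no marker and no extent of the deletion, and do not name the second strain, which was taken to be the GCR1 parent. Both strains of an array grew on the same sugar. The design text mentions biological replicates and dye-swapped repeats but not which array is which, so some of the 4 arrays of a sugar share a culture, and each p-value below is likely smaller than separate cultures would give.

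Gcr1 is a DNA-binding activator that recognises CT boxes upstream of most glycolytic genes, usually next to a site for Rap1. Gcr2 binds Gcr1 and acts as its coactivator. Tye7, also called Sgc1, is a basic helix-loop-helix factor that binds E boxes, and it was found through a mutation that suppresses the growth defect of gcr mutants. Rap1, Reb1 and Abf1 are essential general regulatory factors that open promoter chromatin at many genes. Rap1 also acts at ribosomal protein genes, silent mating loci and telomeres, Reb1 also acts at ribosomal DNA, and Abf1 also acts at replication origins.

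Values are log2 ratios of the strains, read as positive where a transcript was higher in the labelled mutant. That reading is not settled, because no label assigns the strains to the channels. It was chosen because genes that Gcr1 is known to activate, such as the phosphoglycerate mutase gene GPM1 (between -5.39 and -4.86 in the 3 sugars), then lie below 0. The opposite reading would exchange higher and lower throughout. A ratio gives no transcript level, and a ratio that differs between sugars does not show in which strain the transcript differed.

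The arrays fell into pairs. Across probes with a gene name, replicates 1 and 2 of a sugar correlated at r of at least 0.933, and so did replicates 3 and 4. Between those pairs r was 0.243 to 0.466 in raffinose, 0.657 to 0.733 in galactose and 0.778 to 0.849 in glucose. Over all probes r between the pairs was -0.507 to -0.34 in raffinose, -0.143 to -0.0513 in galactose and 0.1 to 0.118 in glucose. Counted over all 12 arrays, 114 of 1536 unnamed spots had extreme ratios of opposite sign in the pairs. The correlations over all probes and over named probes thus had opposite signs in raffinose and galactose, and in every sugar those over all probes were lower. Among the named genes, GPM1 lay at -4.64 on raffinose replicates 1 and 2 and at -6.15 on replicates 3 and 4. The enolase gene ENO2 lay at -4.42 and -5.68. Both had the same sign on both pairs as deposited, and as in the other sugars. Other genes did not, such as ABM1 at -2.48 and 1.31 in raffinose, where 45.4% of all genes had opposite signs in the pairs. The deposited signs are used throughout, a choice that GPM1 and ENO2 do not settle. Only in raffinose did r over all probes fall below -0.3, and raffinose values are therefore also given with replicates 3 and 4 turned in sign. The median over all genes was 0.53 lower on replicates 3 and 4 than on replicates 1 and 2 in raffinose (as the median difference per gene), 0.48 lower in galactose and 0.15 lower in glucose.

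GCR1, the deleted gene by the labels, read higher in the labelled mutant in every sugar. In raffinose its log2 ratio was 2.04, 1.90, 1.36 and 1.38 on replicates 1 to 4. In galactose it was 1.82, 1.70, 1.45 and 1.34, and in glucose 0.48, 0.49, 0.43 and 0.21. All 12 values lay above 0, and the glucose arrays did not overlap those of the other sugars. The means were 1.67 ± 0.35 (SD, n = 4) in raffinose, 1.58 ± 0.22 in galactose and 0.40 ± 0.13 in glucose, which correspond to 3.18-fold, 2.98-fold and 1.32-fold. All were called by limma, with an adjusted p = 1.94e-06, 7.89e-07 and 0.0194. Leaving out glucose replicate 1, 2 or 3 ended the glucose call (adjusted p = 0.0662, 0.0705 and 0.0609), as did averaging each pair of arrays (limma, adjusted p = 0.263).

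GCR1 was measured by a pair of probes, which gave the same picture. Their mean ratios were 1.70 and 1.64 in raffinose, 1.59 and 1.56 in galactose and 0.35 and 0.46 in glucose. The largest gap between them on any of the 12 arrays was 0.236. Fitted singly, each was called higher in glucose as well (limma, adjusted p = 0.0366 and 0.014). The position of the probes in the gene is not known here, so signal from GCR1 sequence outside a deleted part cannot be told apart from signal of an intact gene, and these probes do not check the labels.

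Of the genes on either side of GCR1 in the R64 gene order, neither was called higher in every sugar as GCR1 was. GPI2 (YPL076W), which encodes a subunit of the enzyme that starts glycosylphosphatidylinositol anchor synthesis and carries the alias GCR4, had mean ratios of -0.45 ± 0.42 in raffinose, -0.71 ± 0.31 in galactose and -0.24 ± 0.35 in glucose. It fell in galactose (limma, adjusted p = 0.00336). The replicate block, which enters the replicate number as a term, also called it lower in raffinose (adjusted p = 0.000158) and glucose (adjusted p = 0.0081), although on replicates 3 and 4 only its glucose ratio was 0.063. That block takes the gap between the pairs of arrays out of the spread behind its p-values. Averaging each pair of arrays ended the GPI2 call in galactose (limma, adjusted p = 0.102). YTA6 (YPL074W), an ATPase gene, was like GCR1 lowest in glucose, at 0.22 ± 0.45, 0.58 ± 0.50 and -0.46 ± 0.15 in raffinose, galactose and glucose. It rose in galactose (limma, adjusted p = 0.0169) and fell in glucose (adjusted p = 0.0486). The galactose call was lost without galactose replicate 1 or 2 (adjusted p = 0.111 and 0.0677) and the glucose call ended whichever glucose array was left out (adjusted p from 0.0712 to 0.16).

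GCR2, the partner of Gcr1, was higher in the labelled mutant in raffinose and galactose and lower in glucose. Its ratio was 0.83, 0.65, 0.12 and 0.33 on replicates 1 to 4 in raffinose and 0.84, 0.80, 0.59 and 0.34 in galactose. In glucose it was -0.64, -0.56, -0.63 and -0.52. All 8 raffinose and galactose values lay above 0 and all 4 glucose values below it. The means were 0.48 ± 0.32 (limma, adjusted p = 0.0093), 0.64 ± 0.23 (adjusted p = 0.000684) and -0.59 ± 0.06 (adjusted p = 0.00136). The raffinose call was lost without raffinose replicate 1 (adjusted p = 0.0563), on replicates 3 and 4 only (adjusted p = 0.0692) and with each sugar fitted on its own arrays (adjusted p = 0.0877). When each pair of arrays was averaged, none of the GCR2 calls held (limma, adjusted p = 0.294, 0.0786 and 0.105 in raffinose, galactose and glucose), so the opposite directions rest on counting the 4 arrays singly. Both GCR2 probes gave the same calls in the 3 sugars, and they differed by 0.361 at most.

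GCR1 and GCR2 moved in parallel over the arrays. On the same array the GCR1 ratio exceeded that of GCR2 by 1.05 to 1.25 in raffinose, by 0.859 to 1.002 in galactose and by 0.73 to 1.12 in glucose. The mean difference of ratios was 1.19 ± 0.09, 0.94 ± 0.07 and 0.99 ± 0.18, whereas each gene's own mean ratio dropped by more than 1 from raffinose or galactose to glucose. The difference was not tested, since the pair was singled out after the values were seen. Other genes also ran in parallel with GCR2. Pearson's r with GCR2 over the 12 arrays was 0.979 for SIP3, 0.971 for BUL2 and 0.972 for IOC3. These genes were picked as the nearest to GCR2 on the same arrays, so their high r follows from the choice. The r of GCR1 with GCR2 is not given here.

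TYE7, the helix-loop-helix factor gene, had the highest mean ratio of the 6 genes in every sugar (with raffinose replicates 3 and 4 turned, ABF1 was higher in raffinose, at 0.47 against 0.35). It was at 2.38, 1.88, 1.56 and 1.28 on replicates 1 to 4 in raffinose and at 3.12, 2.93, 2.66 and 2.47 in galactose. In glucose it was at 1.42, 1.89, 1.48 and 1.73. Every galactose array lay above every array of the other sugars, and raffinose and glucose overlapped. The means were 1.77 ± 0.47 (3.42-fold), 2.80 ± 0.29 (6.95-fold) and 1.63 ± 0.22 (3.09-fold), all called higher by limma with an adjusted p = 7.78e-06, 7.44e-08 and 3.47e-06. TYE7 rests on 1 probe. In galactose only 24 of 5636 genes had a higher mean ratio, against 53 in raffinose (1738 with replicates 3 and 4 turned) and 322 in glucose.

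The difference between TYE7 and GCR1 was not the same in the 3 sugars. In raffinose the TYE7 ratio lay between 0.096 below and 0.34 above that of GCR1 on the same array. It lay 1.13 to 1.30 above it in galactose and 0.94 to 1.52 above it in glucose. The raffinose range does not overlap the other ranges. This comparison too was singled out after the values were seen and was not tested.

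**Figure D1:**
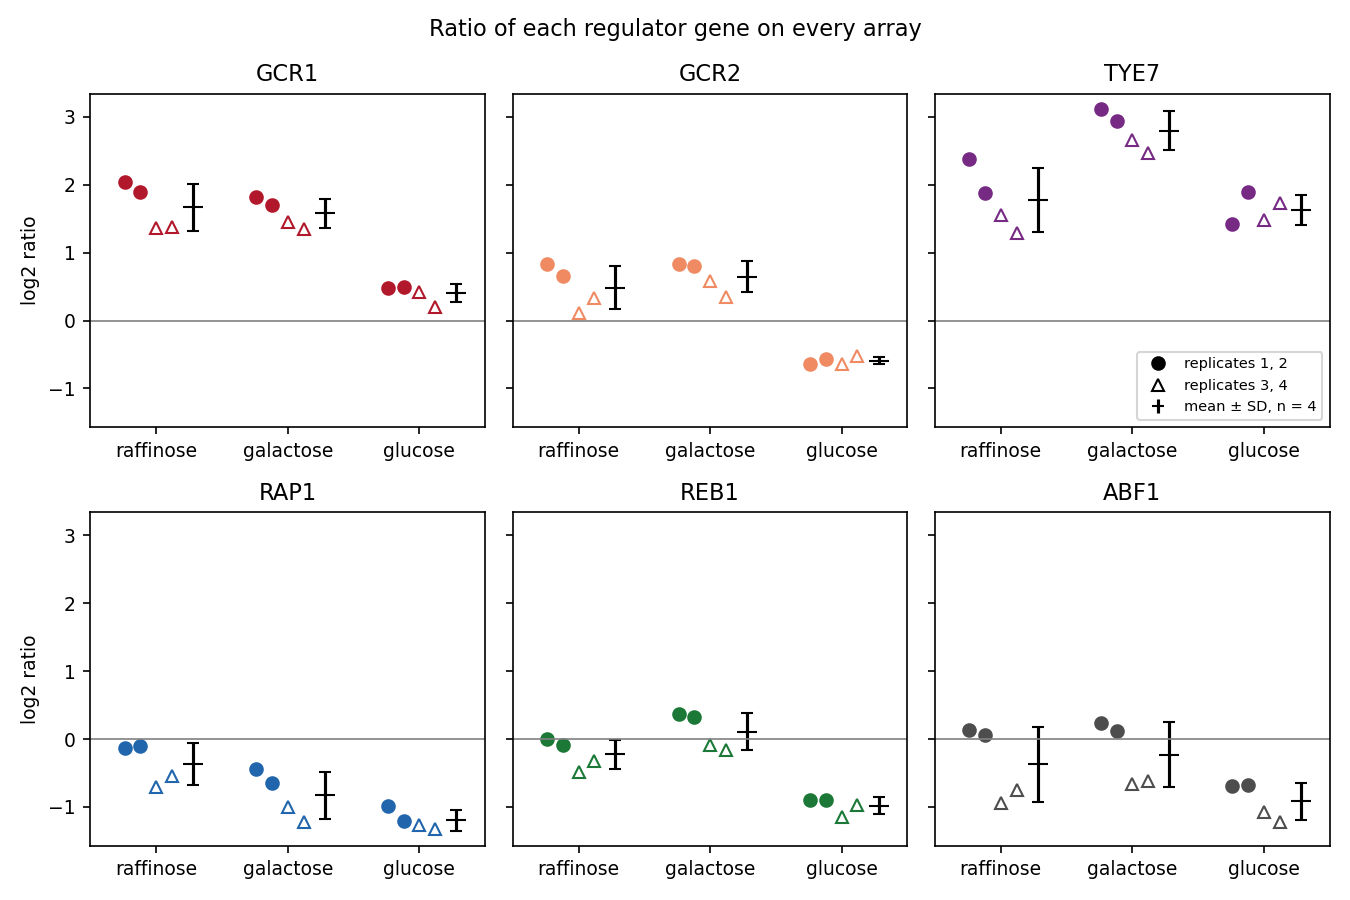
The log2 ratio (vertical axis) of each of the 6 genes on all 12 arrays, by sugar, with filled circles for replicates 1 and 2, open triangles for replicates 3 and 4 and a bar for the mean ± SD of 4 arrays. GCR1 and TYE7 lie above 0 on every array, GCR2 lies above 0 in raffinose and galactose and below it in glucose, and ABF1 has circles above and triangles below 0 in raffinose and galactose.

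RAP1 was lower in the labelled mutant, most of all in glucose. Its ratio was -0.13, -0.098, -0.71 and -0.54 on replicates 1 to 4 in raffinose, -0.44, -0.65, -0.998 and -1.23 in galactose and -0.98, -1.21, -1.27 and -1.32 in glucose. All 12 values lay below 0, and the galactose arrays overlapped those of both other sugars. The means were -0.37 ± 0.30 in raffinose, -0.83 ± 0.35 in galactose and -1.20 ± 0.15 in glucose, the last a level in the second strain 2.29-fold that in the mutant. Limma called RAP1 lower in galactose (adjusted p = 0.000275) and glucose (adjusted p = 1.41e-05) but not in raffinose (adjusted p = 0.0618). With the replicate block the raffinose value was called (adjusted p = 0.0028), as it was with each array centred on its median (-0.44, adjusted p = 0.000495), but not with each pair of arrays averaged (adjusted p = 0.46).

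REB1 was lower in the labelled mutant in glucose. There its ratio was -0.90, -0.90, -1.15 and -0.97, with a mean of -0.98 ± 0.12 (limma, adjusted p = 1.75e-05). In raffinose it was -0.005, -0.089, -0.48 and -0.32, with a mean of -0.22 ± 0.22 that was not called (adjusted p = 0.167). In galactose it was 0.38 and 0.32 on replicates 1 and 2 and -0.089 and -0.16 on replicates 3 and 4, with a mean of 0.11 ± 0.28 (adjusted p = 0.453). All glucose arrays lay below all raffinose and galactose arrays, which overlapped each other. The replicate block called the raffinose value (limma, adjusted p = 0.0238), and the averaged pairs did not (adjusted p = 0.65). REB1 rests on 1 probe.

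ABF1 was also lower in glucose, and in the other sugars it differed in sign between the pairs of arrays. In glucose its ratio was -0.69, -0.68, -1.07 and -1.23, with a mean of -0.92 ± 0.28 (limma, adjusted p = 0.00205). In raffinose the first pair of arrays gave 0.13 and 0.067 and the second -0.94 and -0.75, and the mean of -0.37 ± 0.55 was not called (adjusted p = 0.18). In galactose the first pair gave 0.24 and 0.12 and the second -0.66 and -0.62, with a mean of -0.23 ± 0.48 (adjusted p = 0.358). The replicate block called both values lower (adjusted p = 0.00298 and 0.0295), and the averaged pairs neither (adjusted p = 0.565 and 0.628). The glucose call also ended with the pairs averaged (adjusted p = 0.0707). On replicates 1 and 2 only, neither was called (adjusted p = 0.305 and 0.0682) and both lay above 0, while on replicates 3 and 4 only, both were called lower (adjusted p = 3.27e-06 and 2.84e-05).

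The gap between the pairs of arrays was wider for ABF1 than for the other 5 genes. Replicates 3 and 4 lay below replicates 1 and 2 by 0.94 in raffinose, 0.82 in galactose and 0.47 in glucose. Only 9.39% of all genes had a lower difference in raffinose, 9.65% in galactose and 21.7% in glucose. For the other 5 genes these shares were 30.8% to 65.1% in raffinose, 37.8% to 63.8% in galactose and 44.7% to 66.3% in glucose, so their gaps were near that of the array as a whole. The means of the pairs had opposite signs for 45.4% of all genes in raffinose, 28.5% in galactose and 20.7% in glucose. The part of the pairing in the ABF1 values was not tested.

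**Figure D2:**
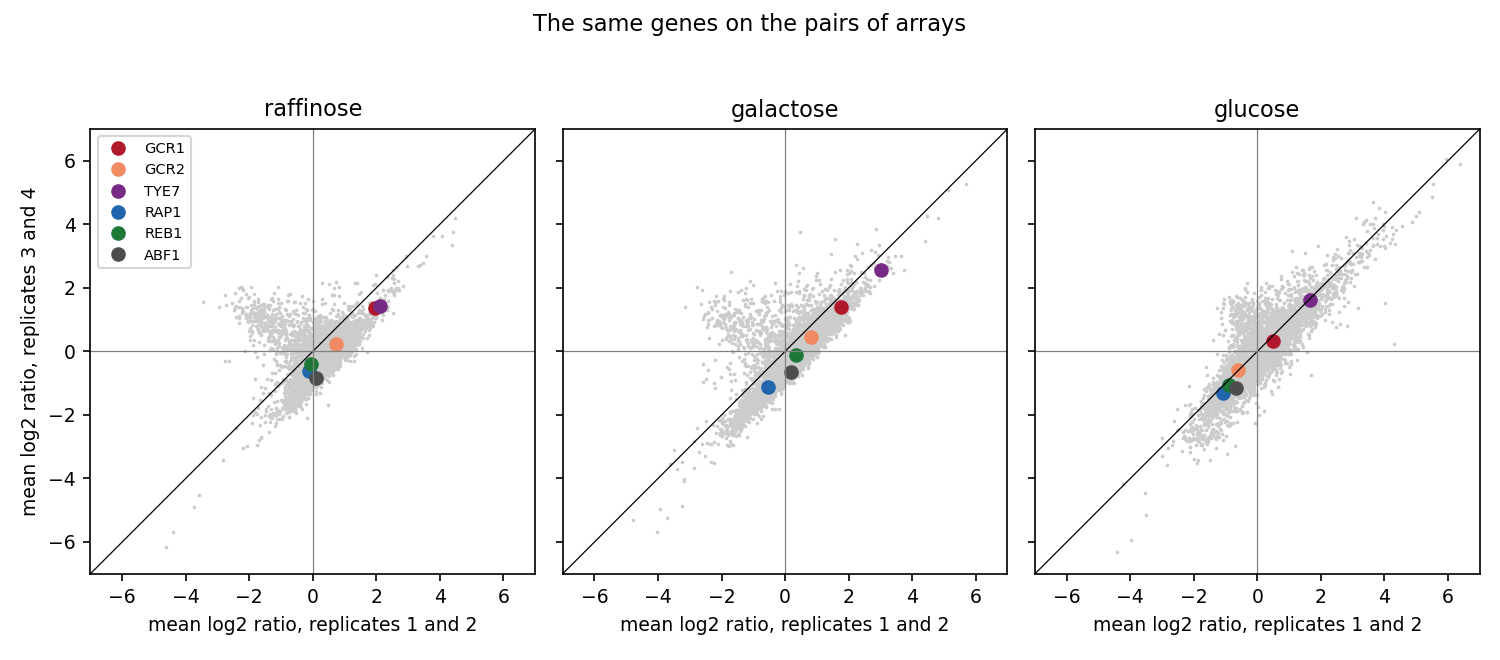
Mean log2 ratio on replicates 1 and 2 (horizontal axis) against that on replicates 3 and 4 (vertical axis) for all 5636 genes (grey) and the 6 regulator genes (coloured), by sugar, with the line of equal values. GCR1 and TYE7 lie in the upper right quadrant in all sugars, while ABF1 lies in the lower right quadrant in raffinose and galactose, where the pairs differ in sign.

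Counted over the 6 genes, raffinose gave 3 calls, galactose 4 and glucose 6. In raffinose GCR1, GCR2 and TYE7 were called higher, where 36.7% of all genes were called, 22.4% higher and 14.3% lower. In galactose the same genes were higher and RAP1 was lower, where 60.0% of all genes were called, 34.8% higher and 25.2% lower. In glucose GCR1 and TYE7 were higher and GCR2, RAP1, REB1 and ABF1 lower, where 58.6% of all genes were called, 26.8% higher and 31.8% lower. The share of the 6 genes called lay near that of all genes in raffinose and galactose. Of the genes called in raffinose 61.1% were higher, against 50.2% with each array centred on its median, so the balance of directions over the array rests on that choice. The median over the 6 genes was 0.13, 0.38 and -0.75 in the 3 sugars, beside 0.05, 0.08 and -0.04 over all genes.

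The order of the ratios was TYE7, GCR1, GCR2 from the top in every sugar, followed by the general factors, as deposited. With raffinose replicates 3 and 4 turned, the raffinose order was ABF1, TYE7, GCR1, GCR2, RAP1 and REB1, within 0.18 to 0.47. In raffinose TYE7 and GCR1 overlapped over their arrays, GCR1 stood clear of GCR2 and GCR2 of REB1, and REB1, RAP1 and ABF1 overlapped. In galactose TYE7, GCR1 and GCR2 were each apart from the next, while GCR2, REB1, ABF1 and RAP1 overlapped from neighbour to neighbour. In glucose TYE7, GCR1, GCR2 and ABF1 were each apart from the next, and ABF1, REB1 and RAP1 overlapped. Among all genes, GCR1 stood above 98.8% in raffinose (56.8% with replicates 3 and 4 turned), 96.1% in galactose and 72.1% in glucose. GCR2 stood above 81.4%, 75.9% and 22.5%, and RAP1 above 19.3%, 12.9% and 8.06%. With those arrays turned, GCR2 stood above 48.2% in raffinose and RAP1 above 47.8%.

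**Figure D3:**
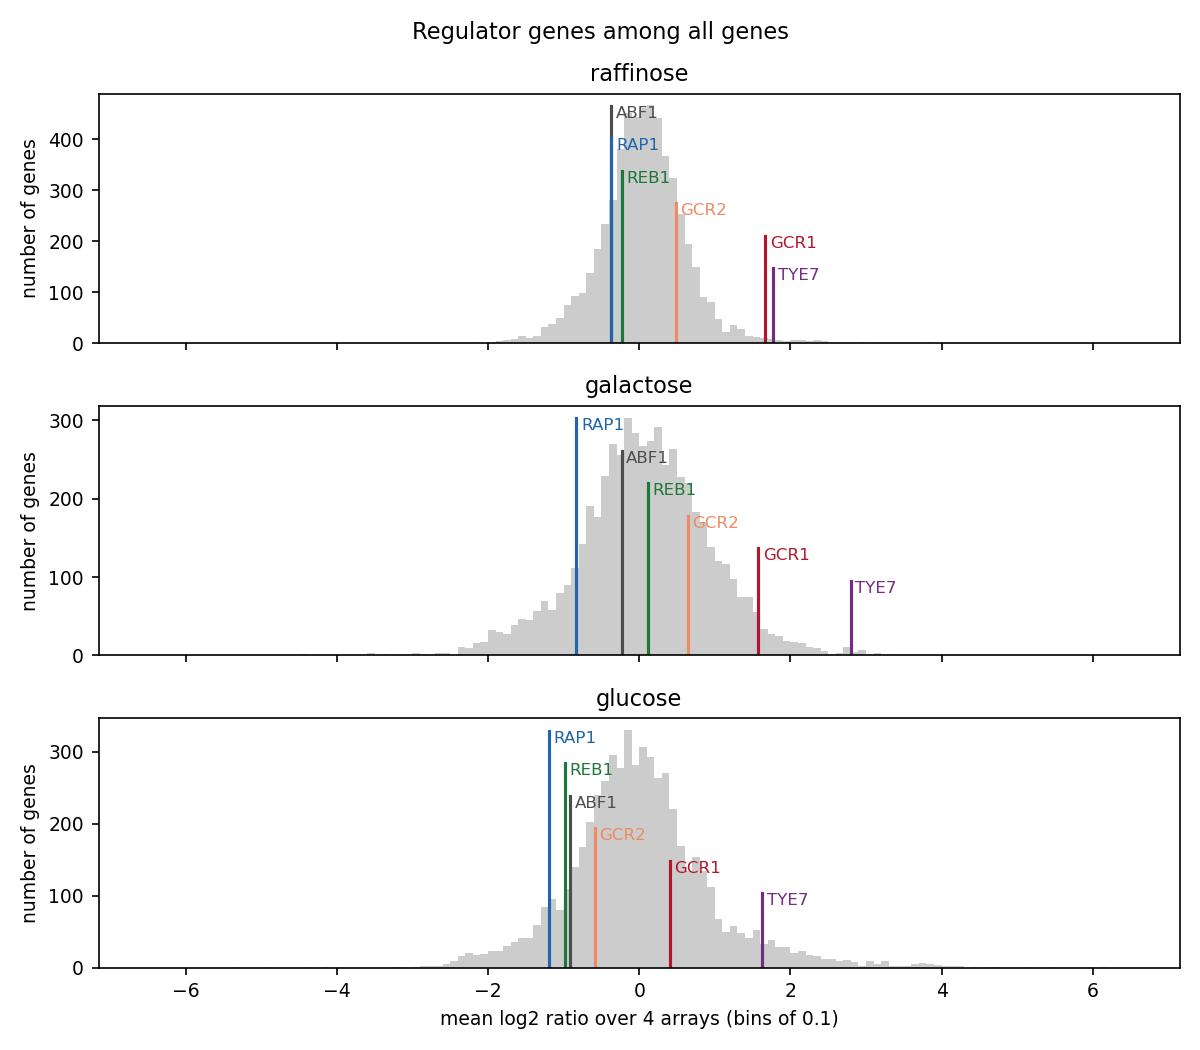
Number of genes (vertical axis) by mean log2 ratio over 4 arrays (horizontal axis, bins of 0.1) for each sugar, with a coloured line at each regulator gene, whose height has no meaning. TYE7 lies in the far right of each distribution, GCR1 moves toward the middle in glucose, and RAP1, REB1 and ABF1 lie on the left in glucose.

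The comparison of sugars asks whether the ratio between the strains depended on the carbon source. Between raffinose and glucose, 4 of the 6 genes differed, where 37.6% of all genes did (22.6% higher and 15.0% lower in raffinose), and all 4 had the higher ratio in raffinose. The difference was 1.27 ± 0.19 (SE) for GCR1 (limma, adjusted p = 0.000282), 1.07 ± 0.18 for GCR2 (adjusted p = 0.000602), 0.83 ± 0.20 for RAP1 (adjusted p = 0.00673) and 0.76 ± 0.17 for REB1 (adjusted p = 0.00411). The same 4 genes had arrays that did not overlap between these sugars, as had 38.1% of all genes. TYE7 differed by 0.14, with a 95% interval from -0.36 to 0.65. ABF1 differed by 0.54, with an interval from -0.090 to 1.18, and was called with the replicate block (adjusted p = 0.00236).

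Between galactose and glucose 4 of the 6 genes differed as well, where 47.1% of all genes did (27.8% higher and 19.3% lower in galactose), again with the higher ratio in galactose. The difference was 1.23 ± 0.18 for GCR2 (limma, adjusted p = 0.000103), 1.18 ± 0.19 for GCR1 (adjusted p = 0.000226), 1.17 ± 0.23 for TYE7 (adjusted p = 0.00123) and 1.09 ± 0.17 for REB1 (adjusted p = 0.000195). ABF1 differed by 0.69, with a 95% interval from 0.052 to 1.32 (adjusted p = 0.0714). RAP1 differed by 0.37, with an interval from -0.073 to 0.81 (adjusted p = 0.158). With the replicate block both were called (adjusted p = 0.00037 and 0.0171). Arrays did not overlap for 5 of the 6 genes, all but RAP1, and for 47.6% of all genes.

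Between raffinose and galactose 1 of the 6 genes differed, where 30.5% of all genes did (13.3% higher and 17.2% lower in raffinose). TYE7 was lower in raffinose by 1.02 ± 0.23 (limma, adjusted p = 0.00581), and it alone had arrays that did not overlap, as had 29.6% of all genes. GCR1 differed by 0.090, with a 95% interval from -0.32 to 0.50, and GCR2 by -0.16, with an interval from -0.54 to 0.22. RAP1 was at 0.46 (adjusted p = 0.0994) and REB1 at -0.33 (adjusted p = 0.151), and the replicate block called both (adjusted p = 0.0061 and 0.0188). ABF1 was at -0.14, with an interval from -0.78 to 0.49. The comparisons share arrays of each sugar, so they are not independent of each other. Centring each array changed the share of higher calls over all genes from 60.1% to 49.6% for raffinose against glucose and from 59.0% to 47.4% for galactose against glucose.

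Within the pairs of arrays the called differences kept their direction. For these genes the arrays did not overlap between the sugars compared, so the same direction in both pairs follows and is no separate support. The difference between galactose and glucose was 1.27 on replicates 1 and 2 and 1.08 on replicates 3 and 4 for GCR1, 1.42 and 1.04 for GCR2, 1.37 and 0.965 for TYE7 and 1.24 and 0.934 for REB1. That between raffinose and glucose was 1.48 and 1.05 for GCR1, 1.34 and 0.80 for GCR2, 0.98 and 0.67 for RAP1 and 0.85 and 0.66 for REB1. TYE7 in raffinose against glucose was 0.47 on replicates 1 and 2 and -0.18 on replicates 3 and 4. When each pair of arrays was reduced to its average and then fitted, limma called none of the 6 genes in any of these comparisons (at an unadjusted p under 0.05, 2 genes for raffinose against glucose, 4 for galactose against glucose and 1 for raffinose against galactose). The lowest adjusted p was 0.106, 0.0501 and 0.229. The calls that the replicate block had added in these comparisons were not made either (adjusted p from 0.359 to 0.643).

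**Figure D4:**
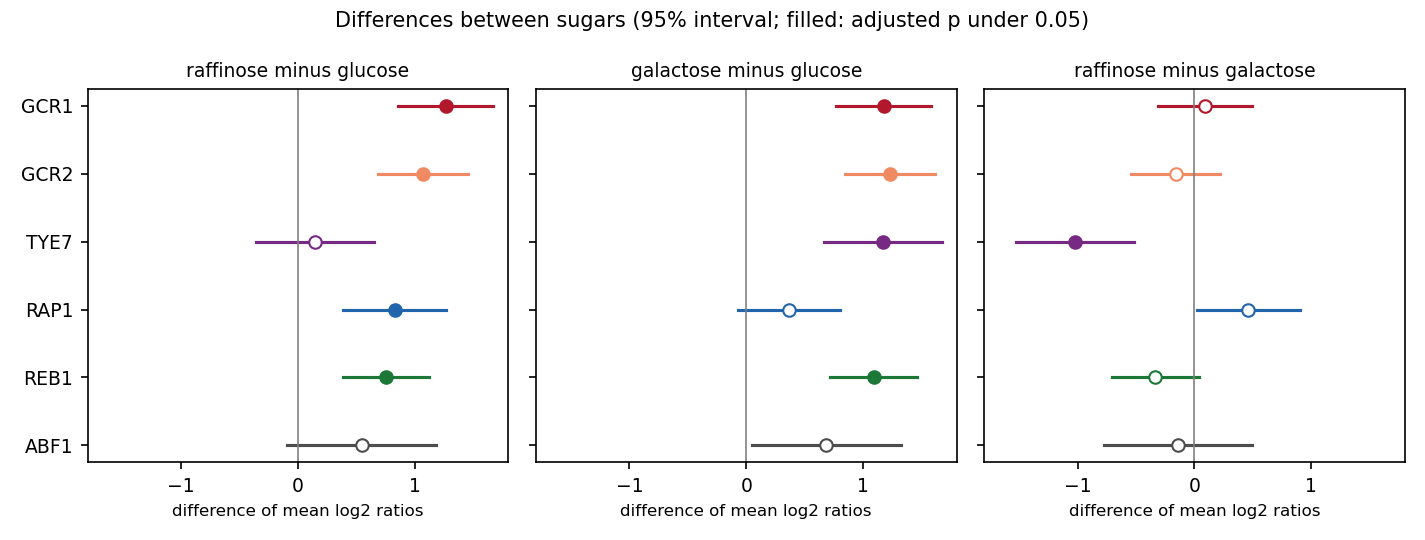
Difference of mean log2 ratios between sugars (horizontal axis) for the 6 genes, with the 95% interval of the fit and a filled point where the adjusted p was under 0.05. GCR1, GCR2 and REB1 lie above 0 against glucose in both panels, TYE7 is above 0 in galactose against glucose and below 0 in raffinose against galactose, and RAP1 is a filled point only in raffinose against glucose.

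Turning the signs of raffinose replicates 3 and 4 removed every raffinose call among the 6 genes. GCR1 was then at 0.30, GCR2 at 0.26, TYE7 at 0.35, RAP1 at 0.26, REB1 at 0.18 and ABF1 at 0.47, with the lowest adjusted p = 0.183 (limma, 1 gene at an unadjusted p under 0.05). Limma then called 0 genes of the whole array in raffinose (1463 had an unadjusted p below 0.05). Turning cancels what both pairs of arrays share, and it put GPM1 at 0.76 in raffinose, against -4.86 in galactose and -4.96 in glucose. With the arrays turned, GCR1 no longer differed between raffinose and glucose (-0.10, adjusted p = 0.911), while GCR2 (0.85), RAP1 (1.45) and REB1 (1.16) were still called higher in raffinose.

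The transcripts whose ratios lay closest to those of each regulator over the 12 arrays were found by the root mean square difference of log2 ratios. For GCR1 they were SYF2 (a difference of 0.327), LPL1 (0.365) and TAP42 (0.397), where the median gene lay 1.43 away. For GCR2 they were SIP3 (0.146), BUL2 (0.152) and IOC3 (0.156), where the median gene lay 0.827 away. For TYE7 they were CMG1 (0.428), NDJ1 (0.442) and RHO5 (0.491), where the median gene lay 2.16 away. The nearest distances of GCR2, GCR1 and TYE7 thus rose with the distance of the median gene. They do not show that GCR1 or TYE7 stood more apart than GCR2.

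The general factors had closer neighbours in this distance, with the median gene 1.07 away for RAP1, 0.844 for REB1 and 0.878 for ABF1. RAP1 lay near RSA4 (0.122), UTP15 (0.135) and SPE2 (0.139), of which RSA4 and UTP15 encode ribosome assembly factors. REB1 lay near RSE1 (0.0759), KIN2 (0.151) and PPX1 (0.154), and ABF1 near SSM4 (0.122), CCT6 (0.133) and SQT1 (0.141). Pearson's r with these genes was 0.943 or more for the general factors and GCR2, and 0.756 to 0.92 for GCR1 and TYE7. These are descriptions over arrays that share sugars and pairs.

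The glycolytic enzyme genes, among them many that Gcr1 is known to activate, set the scale for these regulators. Of 17 glycolytic enzyme genes 10 fell and 2 rose in raffinose, 13 fell and 1 rose in galactose, and 12 fell and 3 rose in glucose. These calls cover 70.6%, 82.4% and 88.2% of the list, beside 36.7%, 60.0% and 58.6% of all genes. Of all genes 14.3%, 25.2% and 31.8% were called lower. The sign of the ratios was chosen so that genes activated by Gcr1 lie below 0. The falling direction of such genes in the list follows from that reading and is no separate result. The 10 that fell in raffinose fell in all 3 sugars. The median over all 17 genes of the list was -1.41, -1.97 and -1.37, further from 0 than the mean of any general factor. GPM1 was at -5.39 ± 0.88, -4.86 ± 0.97 and -4.96 ± 1.15 in raffinose, galactose and glucose, and ENO2 was at -5.05 ± 0.73, -4.48 ± 0.90 and -5.37 ± 1.10. ADH1, the main fermentative alcohol dehydrogenase gene, was at -1.95 ± 0.68, -2.28 ± 0.69 and -2.17 ± 1.02 and fell in all 3.

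The enzyme genes were called between sugars at lower shares than all genes. Of the 17 enzyme genes 3 differed between raffinose and glucose, 4 between galactose and glucose and 4 between raffinose and galactose. These are 17.6%, 23.5% and 23.5% of the list, beside 37.6%, 47.1% and 30.5% of all genes, and the difference in shares was not tested. The hexokinase gene HXK1 had the widest spread, at 0.73 ± 0.44 in raffinose, -1.33 ± 0.55 in galactose and 5.18 ± 0.40 in glucose. The glucokinase gene GLK1 was at 1.29 ± 0.62, 1.43 ± 0.53 and 3.64 ± 0.43. The HXK1 call in raffinose was lost without raffinose replicate 1 or 2 (limma, adjusted p = 0.0872 and 0.0834).

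Proteins that work with Rap1 at telomeres, silent loci and ribosomal protein genes were mixed. Of 10 such genes 3 were called in raffinose, all lower, 7 in galactose, 5 of them higher, and 5 in glucose, all lower. These are 30.0%, 70.0% and 50.0% of the list, near the 36.7%, 60.0% and 58.6% of all genes called. HMO1, which encodes a high mobility group protein of ribosomal gene promoters, fell in every sugar, to -0.68 ± 0.32, -1.31 ± 0.31 and -1.12 ± 0.37. SIR2, the silencing deacetylase gene, also fell in every sugar, to -0.70 ± 0.11, -0.40 ± 0.26 and -0.56 ± 0.17, although its galactose call was lost without galactose replicate 4 (limma, adjusted p = 0.0538). The calls given for this and the other lists count the arrays singly, without the averaging of pairs applied to the regulators. RIF1, which encodes a telomere length regulator bound by Rap1, fell in raffinose (-0.40 ± 0.09) and glucose (-0.78 ± 0.17) but rose in galactose (1.01 ± 0.14). FHL1, a regulator of ribosomal protein genes, was at -0.22 ± 0.12, 0.12 ± 0.12 and -0.84 ± 0.08, of which the glucose value was called, and the raffinose value only with the replicate block (adjusted p = 0.0217).

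With raffinose replicates 3 and 4 turned in sign, the raffinose ratios of HMO1 (0.27), RIF1 (0.052) and FHL1 (0.073) lay above 0, as did those of ENO2 (0.63) and ADH1 (0.58).

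Other factors of the same kinds gave the following counts, in lists too short to set against the 36.7%, 60.0% and 58.6% of all genes called in raffinose, galactose and glucose. Of the general regulatory factor genes CBF1, MCM1 and TBF1, TBF1 fell in all 3 sugars (-0.57 ± 0.31, -0.73 ± 0.29 and -1.14 ± 0.14) and MCM1 fell in glucose. Of 8 basic helix-loop-helix genes, TYE7 included, raffinose gave 2 calls, galactose 6 and glucose 3, and TYE7 had the highest ratio of the list in each sugar. Of the genes for relatives of Gcr1 in its DNA-binding region, HOT1, a factor of the osmotic stress response, rose in raffinose (0.58 ± 0.11) and galactose (1.25 ± 0.17) and was at -0.02 ± 0.27 in glucose. MSN1, the other relative, was called lower in glucose. Among 4 genes for other transcription and RNA processing factors, STO1 (first isolated as GCR3), GAL11, SPT3 and PAF1, raffinose gave 1 call and the other sugars 3 each.

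**Figure D5:**
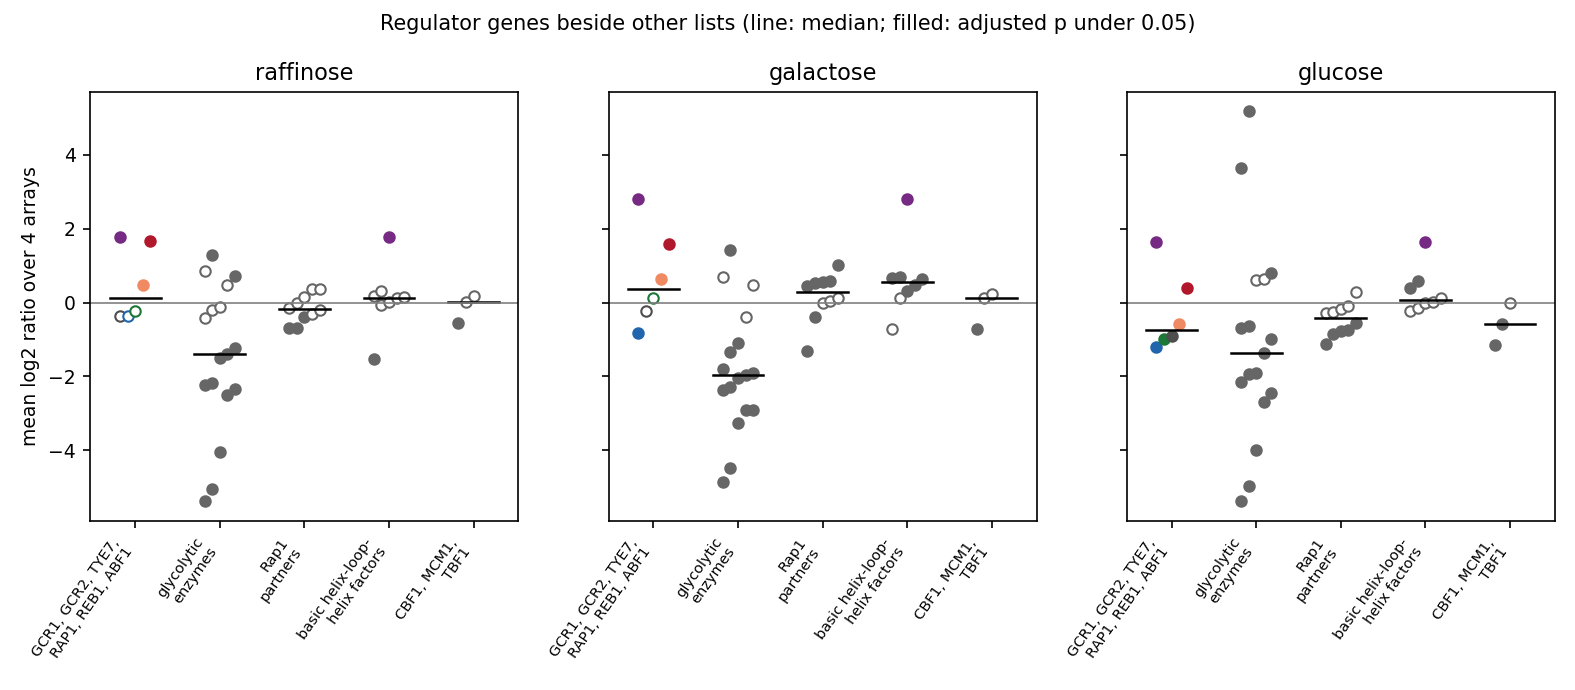
Mean log2 ratio over 4 arrays (vertical axis) of the 6 regulator genes (coloured) beside glycolytic enzyme genes, Rap1 partner genes, basic helix-loop-helix factor genes and 3 other general regulatory factor genes (grey, with TYE7 shown again in its list), by sugar, with a line at each list's median and filled points where the adjusted p was under 0.05. Most glycolytic enzyme genes lie below 0, at medians of -1.41, -1.97 and -1.37, whereas the regulators range from -1.20 to 2.80.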

How the data were processed

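The deposited table holds log2 ratios, 1 per probe and array, for 12 arrays. Per the labels' protocols RNA was labelled with an Agilent low-input amplification kit, with Cy5 for the first channel and Cy3 for the second. How the authors normalized the ratios, and whether they turned dye-swapped arrays, is not given in the sources used here. Base 2 was taken as the log base, which no source states. Spot brightness was not analysed here, so signal over background is unknown, and precision is limited by the number of arrays. The median gene of an array lay between -0.188 and 0.296, and no array was centred.

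Of the probes 9271 had 1 gene name in the platform annotation, 0 had several and 1536 had none. All 9271 identifiers matched the R64 gene table. Probes of a gene were averaged, and a value was required on 3 of 4 arrays per sugar, which kept 5636 genes. The fit used limma 3.58.1 in R 4.3.3 on all 12 arrays with 1 mean per sugar. Means were tested against 0 and against each other, with Benjamini-Hochberg adjustment over all genes and calls at an adjusted p under 0.05. Single values are means ± SD over 4 arrays unless marked SE.

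Named genes were the 6 regulators, genes of fixed lists, the neighbours of GCR1 and the 3 genes nearest to each regulator by root mean square difference. The members and lists were chosen with earlier results of these data known. After removal of each sugar's mean, arrays with the same replicate number correlated at r = 0.521 to 0.893 across sugars. Each such r was over 0.1. With the means of the pairs of arrays removed r was -0.321 to 0.153. Arrays of the same number thus shared the split of replicates 1 and 2 from 3 and 4. A match of single arrays across sugars was not shown. Alternatives were array centring, the replicate block, averages of arrays, turned signs, probes singly, complete genes, separate fits and leaving out each array. Fits on replicates 1 and 2 only and 3 and 4 only were added after seeing the data. Tested on simulated data for raffinose with independent arrays (5636 genes, 200 changed), the fit recovered 37.3%, 80.6% and 97% of genes changed by 0.5, 1 and 2, with 2.05% of calls false. The real arrays form pairs, which the simulated arrays lacked. These shares therefore do not give the share of false calls in the data. A planned search for promoter motifs was not run, and no sequences are used here.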

Additional observations from a re-analysis of the deposited data

Results flagged for a closer look

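The ratio between the strains differed between sugars in 9 of 18 tests of the 6 genes (limma, adjusted p under 0.05 over all genes), where 37.6%, 47.1% and 30.5% of all genes differed between raffinose and glucose, galactose and glucose, and raffinose and galactose. None of the 9 was called with each pair of arrays averaged (at an unadjusted p under 0.05, 2, 4 and 1 of the 6 genes). Against glucose, GCR1 was higher by 1.27 in raffinose and 1.18 in galactose, GCR2 by 1.07 and 1.23, and REB1 by 0.76 and 1.09. RAP1 was higher by 0.83 in raffinose and TYE7 by 1.17 in galactose, each against glucose. TYE7 was at -1.02 in raffinose against galactose. GCR2 is the only one of the 6 genes that was called in opposite directions in different sugars, and its calls too ended with the pairs averaged. No array stood apart from the other 3 of its sugar by Dixon's criterion in the 18 groups tested. Where the arrays split into the pairs, as for ABF1 in raffinose, this criterion cannot flag an array.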

How the results depend on the processing

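The number of genes called moved with how arrays were treated. It was 2071 in raffinose, 2117 for raffinose against glucose, 2656 for galactose against glucose and 1718 for raffinose against galactose. With the replicate block it was 3406, 3492 and 3358 for raffinose and its differences from glucose and galactose, and centring each array gave 2820 for raffinose against galactose. Averaging replicates 1 and 2, and 3 and 4, gave 184, 1688 and 1564 in raffinose, galactose and glucose, against 3383 and 3302 without averaging in the last 2, and 132, 796 and 84 for the 3 differences. Averaging 1 with 3 and 2 with 4 gave 3660 in raffinose and 3713, 4089 and 3561 for the differences, and averaging 1 with 4 and 2 with 3 gave 4558, 4556, 4749 and 4431. Fitting each sugar alone gave 1233 in raffinose, and turning raffinose replicates 3 and 4 gave 0 by limma (1463 at an unadjusted p under 0.05). Fits on replicates 1 and 2 only, and on 3 and 4 only, both chosen after seeing the data, gave 4030 and 3869 in raffinose, 3765 and 3342 for raffinose against glucose and 3361 and 3095 for raffinose against galactose. The cause was not tested.

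Among the 6 regulators the replicate block added calls for RAP1 (-0.37), REB1 (-0.22) and ABF1 (-0.37) in raffinose and ABF1 (-0.23) in galactose. It also added ABF1 (0.54) for raffinose against glucose, ABF1 (0.69) and RAP1 (0.37) for galactose against glucose, and RAP1 (0.46) and REB1 (-0.33) for raffinose against galactose. It ended no call of the 6, and the averages of 1 with 3 and 2 with 4, and of 1 with 4 and 2 with 3, added the same calls. The block and these averages all leave the gap between the pairs of arrays out of the spread behind their p-values. Their shared calls are therefore not separate support. Centring called RAP1 (-0.44), REB1 (-0.29) and ABF1 (-0.44) in raffinose, ABF1 (-0.33) in galactose and (0.52) for galactose against glucose, and RAP1 (0.49) and REB1 (-0.31) for raffinose against galactose.

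Averaging 1 with 2 and 3 with 4 ended the calls of GCR2 in raffinose (0.48), galactose (0.64) and glucose (-0.59) and of GCR1 (0.40) and ABF1 (-0.92) in glucose. It also ended those of GCR1 (1.27), GCR2 (1.07), RAP1 (0.83) and REB1 (0.76) for raffinose against glucose, of GCR1 (1.18), GCR2 (1.23), TYE7 (1.17) and REB1 (1.09) for galactose against glucose, and of TYE7 (-1.02) for raffinose against galactose. Over the regulators and the other genes given with mean and SD, this averaging ended 28 calls, so it also ended calls of genes outside the regulators. Fitting each sugar alone ended the GCR2 call in raffinose (0.48).

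Turning raffinose replicates 3 and 4 ended the raffinose calls of GCR1 (0.30), GCR2 (0.26) and TYE7 (0.35) and changed the sign of RAP1 (0.26), REB1 (0.18) and ABF1 (0.47). Against glucose it changed the sign of GCR1 (-0.10) and TYE7 (-1.28) and added ABF1 (1.39). Against galactose it changed the sign of GCR1 (-1.28), REB1 (0.067) and ABF1 (0.70) and added RAP1 (1.09). It changed the sign in raffinose of GPM1 (0.76), ENO2 (0.63), ADH1 (0.58), RIF1 (0.052), HMO1 (0.27), FHL1 (0.073), TBF1 (0.24) and HOT1 (-0.049).

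On replicates 1 and 2 only, ABF1 changed sign in raffinose (0.098) and galactose (0.18), and calls were added for REB1 in galactose (0.35), ABF1 for raffinose (0.78) and galactose (0.87) against glucose, RAP1 for galactose against glucose (0.55), and RAP1 (0.43) and REB1 (-0.39) for raffinose against galactose. On replicates 3 and 4 only, calls were added for RAP1 (-0.62), REB1 (-0.40) and ABF1 (-0.84) in raffinose, ABF1 in galactose (-0.64) and against glucose (0.51), and RAP1 for raffinose against galactose (0.49). There GCR2 lost its raffinose call (0.22), and the sign changed for REB1 in galactose (-0.13), TYE7 for raffinose against glucose (-0.18), GCR1 for raffinose against galactose (-0.027), GPI2 (0.063) and HOT1 (0.16) in glucose and YTA6 in raffinose (-0.17). HOT1 in glucose also changed sign with centring (0.044) and ranged from -0.11 to 0.11 with 1 glucose array left out.

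Leaving out 1 array at a time gave 0.37 to 0.60 for GCR2 in raffinose and 0.37 to 0.47 for GCR1 in glucose. It gave -0.056 to 0.31 for TYE7 between raffinose and glucose and 0.53 to 0.83 for ABF1 between galactose and glucose. Between raffinose and galactose it gave -0.033 to 0.19 for GCR1, 0.33 to 0.59 for RAP1 and -0.31 to 0.045 for ABF1. Restricting the fit to genes with a value on every array changed no call of the 6 genes, and neither did fitting the probes of a gene singly.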
